A study of Mus musculus with 12 samples.

Results

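Endothelial tip cell genes were followed across 3 *Gpr124* genotypes in mouse embryonic forebrain endothelial cells. The group holds 9 of the 49315 genes in the count files, known markers of sprouting tip cells together with the apelin and Cxcl12 axes: *Esm1*, *Kcne3*, *Apln*, *Aplnr*, *Adm*, *Pdgfb*, *Cxcr4*, *Cxcl12* and *Ackr3*. They were taken by name, with earlier results of these data known, and all 9 passed the filter on low counts that left 16637 genes to test.

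Poly(A) RNA of CD31+ brain endothelial cells at E15.5 was sequenced in 12 libraries, 4 each from wild-type (WT), *Gpr124*ΔC/ΔC and *Gpr124*-/- embryos, with 1 embryo label per library. GPR124, encoded by *Adgra2*, is an adhesion receptor that acts with RECK in Wnt7 signaling of brain vessels. *Gpr124*ΔC/ΔC embryos are homozygous for an allele that ends in a V5 tag and a stop codon before the intracellular tail, and *Gpr124*-/- embryos are homozygous for a *lacZ* knockout allele. According to the study, the ΔC protein is also less abundant than the WT protein, in total and on the cell surface, so loss of the tail and less receptor cannot be told apart in *Gpr124*ΔC/ΔC. Both alleles are germline, so every cell of the embryo carried them, and all 3 groups had the same age and sort (CD31+, CD140b-, CD45-, 7-AAD-), and no treatment is given.

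Tip cells lead a growing vessel sprout: they extend filopodia toward VEGF, and Notch signaling holds back the tip cell state in the stalk cells behind them. Apelin, adrenomedullin, PDGF-B and Cxcl12 are secreted signals, read by receptors on the same or on neighboring cells, that act in vessel growth, caliber and the recruitment of mural cells. In the embryonic forebrain, sprouts enter from a surface plexus and build the internal network, so such genes are commonly used to describe sprouting there.

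*Adgra2* itself had a mean of 38.55 TPM ± 10.4 (SD, n = 4) in WT, 43.4 ± 13.7 in *Gpr124*ΔC/ΔC and 4.86 ± 0.988 in *Gpr124*-/- (TPM, the authors' transcript abundance, which corrects for gene length and library size). The ΔC allele still makes the transcript, so this level checks the *Gpr124*-/- labels but not the *Gpr124*ΔC/ΔC labels. Libraries held 13877572 to 22551163 gene counts, and no 2 had identical counts. Summed endothelial markers (8 genes, none at 0) were at 3392 to 4021 TPM in WT, 3260 to 4637 in *Gpr124*ΔC/ΔC and 3968 to 4711 in *Gpr124*-/-. Single markers moved both ways within this sum. In *Gpr124*-/- the mean of *Emcn* was 444 TPM beside 180.5 in WT, and that of *Tek* 384 beside 616. Of the 8, 1 was called higher and 0 lower there, beside 5.67% and 4.21% of all tested genes. Summed erythroid markers (8 genes) were higher in every *Gpr124*-/- library, at 17820 to 54233 TPM against 7012 to 11772 in WT and 5448 to 9898 in *Gpr124*ΔC/ΔC. Platelet markers (5 genes) followed, at 496.5 to 1435 TPM against 231 to 454.5 and 315 to 438. One WT library, KE8, had the most fibroblast marker RNA (68.5 TPM against 9.03 to 17.9 in the others) and pericyte marker RNA (87.9 TPM). Summed pericyte markers (9 genes, none at 0) had a median of 49.6 TPM in WT (38.2 to 87.9), 24.4 in *Gpr124*ΔC/ΔC (19.5 to 40.1) and 45.7 in *Gpr124*-/- (38.1 to 46.7). Every *Gpr124*ΔC/ΔC library but JE4 was below all WT libraries. In *Gpr124*-/- the pericyte sum held opposite shifts of single genes. *Abcc9* was at a mean of 11.6 TPM beside 1.79 in WT, while *Rgs5* (6.56 beside 17.4), *Vtn* (5.80 beside 12.2) and *Higd1b* (8.10 beside 14.4) were lower. Of the 9 genes, 1 was called higher and 1 lower in *Gpr124*-/- against WT, beside 5.67% and 4.21% of all tested genes. Also, 1 *Gpr124*-/- library, KE4, had the most macrophage marker RNA (18.65 TPM). The part of these other cells in the results was not tested. In RNA from sorted pools, fewer cells of a type and less RNA per cell cannot be told apart, so a level of a tip cell gene is not a number of tip cells.

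Embryo labels carry a first letter whose meaning is not given in the sources used here. Letter J holds 2 WT and 2 *Gpr124*ΔC/ΔC embryos, L holds 1 WT and 2 *Gpr124*ΔC/ΔC, K holds 1 WT and 1 *Gpr124*-/-, and M holds 3 *Gpr124*-/- embryos alone. Values within a letter are therefore given beside the pooled ones. Since no letter holds both mutants, a fit with letter as a term compares them only through WT. Since M holds *Gpr124*-/- embryos alone, that fit rests the *Gpr124*-/- effect against WT on KE4 and KE8, 1 embryo each. Its *Gpr124*-/- values are therefore unreplicated, and its gains or losses of calls say nothing about the M embryos.

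The first question is which members differed from WT when GPR124 was absent. A call needed an adjusted p below 0.05 (edgeR's quasi-likelihood test over all 12 libraries, Benjamini-Hochberg over the 16637 tested genes) and an absolute log2 fold change above 1. In *Gpr124*-/- against WT, 3 of 9 members were called higher (*Esm1*, *Kcne3* and *Ackr3*), beside 5.67% of all tested genes, and 1 was called lower (*Cxcl12*), beside 4.21%. The other 5 did not pass. The second question is which of these differences appeared with the ΔC allele. In *Gpr124*ΔC/ΔC against WT, 2 of 9 were called higher (*Esm1* and *Kcne3*), beside 0.890% of tested genes, and 0 were called lower by edgeR, DESeq2 or limma, beside 1.03%. *Adm* and *Cxcl12*, the 2 lower at an unadjusted p under 0.05, were also lower at the adjusted p with a smaller fold, beside 2.24% of tested genes lower at the adjusted p whatever the fold. In *Gpr124*-/- against *Gpr124*ΔC/ΔC, 4 of 9 were called higher (*Esm1*, *Kcne3*, *Apln* and *Ackr3*), beside 2.67% of tested genes, and 0 were called lower by any of the 3 tools, beside 1.94%, with 2 lower at an unadjusted p under 0.05, of which *Cxcl12* passed the adjusted p, beside 3.89% lower at it whatever the fold. The median log2 fold change of the members was 0.35, -0.25 and 0.60 in these 3 comparisons, beside -0.01, 0.01 and -0.02 over all tested genes. TPM did not overlap between the groups for 3, 4 and 4 of the 9 members, beside 20.3%, 8.85% and 11.5% of all tested genes. Both comparisons with WT share the WT libraries.

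**Figure D1:**
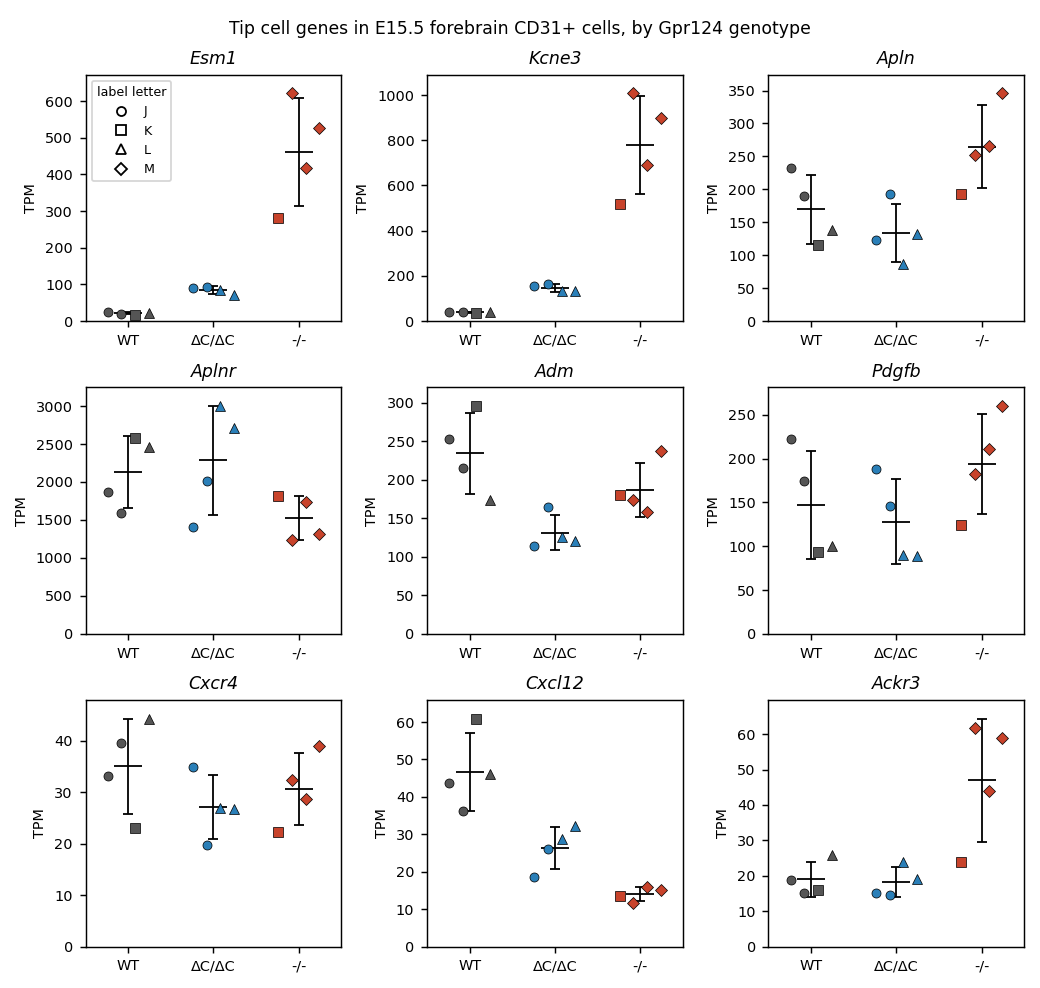
TPM of the 9 members (y axes, linear from 0) in each of the 12 libraries, by genotype (x axis). Symbols give the first letter of the embryo label, and bars give the mean and SD of 4 libraries. *Esm1* and *Kcne3* stepped up from WT to *Gpr124*ΔC/ΔC to *Gpr124*-/- and *Cxcl12* stepped down, each without overlap between genotypes.

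*Esm1* and *Kcne3* stood out among the members, with a rise in both mutants that was larger in *Gpr124*-/-. *Esm1* encodes endocan, a proteoglycan secreted by endothelial cells and a widely used tip cell marker. *Esm1* (ENSMUSG00000042379, chr13:113209659-113218098, plus strand, GRCm38) was at 25.8, 19.6, 17.7 and 22.8 TPM in the WT embryos JE1, JE6, KE8 and LE6. The *Gpr124*ΔC/ΔC embryos JE3, JE4, LE2 and LE5 had 90.7, 94, 85.9 and 70.2 TPM. In the *Gpr124*-/- embryos KE4, ME1, ME4 and ME5 it reached 279.8, 623, 417 and 527 TPM. The 3 genotypes did not overlap, and the lowest *Gpr124*-/- library was KE4. It rose by a log2 fold change of 4.40 (SE 0.27, 95% interval 3.82 to 4.98, adjusted p = 3.44e-07 with edgeR) in *Gpr124*-/- against WT. The corresponding values were 1.92 (SE 0.24, adjusted p = 0.000601) in *Gpr124*ΔC/ΔC against WT and 2.48 (SE 0.24, adjusted p = 0.000161) between both mutants. As folds, these were 21.1, 3.78 and 5.57.

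*Kcne3* encodes a single-pass subunit that changes the gating of voltage-gated potassium channels such as *Kcnq1*, and it is also used as a tip cell marker. *Kcne3* (ENSMUSG00000035165, chr7:100176502-100184869, plus strand) was at 40.8, 37.9, 35.3 and 40.1 TPM in WT, in the same embryo order. It was at 156, 166, 131.5 and 132 TPM in *Gpr124*ΔC/ΔC and at 519, 1010, 692 and 898 TPM in *Gpr124*-/-. Again no genotypes overlapped, and KE4 was the lowest of its group. The log2 fold changes were 4.31 (SE 0.23, adjusted p = 1.99e-07 with edgeR), 1.86 (SE 0.21, adjusted p = 0.000307) and 2.45 (SE 0.21, adjusted p = 8.91e-05) in the same 3 comparisons. Of its exons, 9 bases overlap the antisense gene *Gm34821*, and whether counting used strand is not given in the sources used here. *Kcnq1*, the channel partner, had a mean of 57.8 TPM in WT and 61.7 in *Gpr124*-/-, a log2 difference of 0.06 with edgeR that did not pass (adjusted p = 0.841).

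For both genes, TPM compared by exact permutation (two-sided) gave p = 0.0286 in each comparison, the smallest that 4 against 4 libraries allow, unadjusted. Their calls held in all 21 alternatives of each comparison. Within letter K, *Esm1* and *Kcne3* had log2 ratios of 3.98 and 3.88 in the 1 *Gpr124*-/- embryo over the 1 WT embryo. Within letters J and L the ratios of *Gpr124*ΔC/ΔC over WT were 2.02 and 1.77 for *Esm1* and 2.03 and 1.72 for *Kcne3*. Among the 9989 genes that averaged 8 CPM or more (CPM, counts scaled to library size), *Esm1* and *Kcne3* ranked 3 and 4 from the highest log2 fold change in *Gpr124*-/- against WT, 10 and 13 in *Gpr124*ΔC/ΔC against WT, and 16 and 18 between both mutants.

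The pair also kept a near-constant ratio. *Kcne3* TPM over *Esm1* TPM was 1.58 to 1.99 in WT, 1.53 to 1.88 in *Gpr124*ΔC/ΔC and 1.62 to 1.86 in *Gpr124*-/-, while the *Gpr124*-/- mean of *Esm1* was 21.5 times and that of *Kcne3* 20.2 times the WT mean. Over all 12 libraries, the gene with the profile nearest to *Esm1* among the 9989 was *Kcne3*, and the reverse held, with a mean absolute difference of 0.0917 in centered log2 CPM. The next for each was *Ramp3*, at 0.247 from *Esm1* and 0.194 from *Kcne3*. *Ramp3* is a receptor partner for adrenomedullin and is described with that axis.

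**Figure D2:**
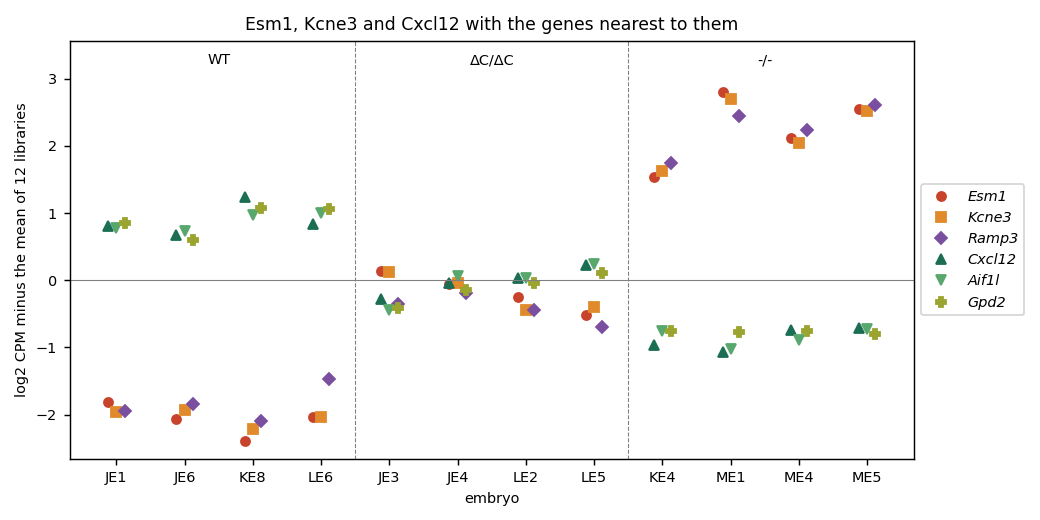
Centered log2 CPM (y axis, 0 is each gene's mean over 12 libraries) of *Esm1*, *Kcne3* and their next nearest gene *Ramp3*, and of *Cxcl12* with its nearest genes *Aif1l* and *Gpd2*, in each embryo (x axis). The points of the first 3 genes climb from WT to *Gpr124*-/- and those of the other 3 descend, with KE4 lowest for *Esm1* in its genotype.

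Because *Esm1* and *Kcne3* moved together, the sequences before their starts are shown here, from RefSeq on GRCm38.p6, each as the 250 bases before a start, 5′ to 3′ on the gene's strand. *Kcne3* has 2 entries. Capitals mark a match to 1 of 4 short motifs searched on both strands over 250 bases before to 50 after the start: the HIF core (ACGTG or GCGTG), the TCF/LEF core (CTTTGA or CTTTGT), the RBPJ core (TGGGAA) and the TATA box (TATAAA).
Esm1, chr13:113209409-113209658: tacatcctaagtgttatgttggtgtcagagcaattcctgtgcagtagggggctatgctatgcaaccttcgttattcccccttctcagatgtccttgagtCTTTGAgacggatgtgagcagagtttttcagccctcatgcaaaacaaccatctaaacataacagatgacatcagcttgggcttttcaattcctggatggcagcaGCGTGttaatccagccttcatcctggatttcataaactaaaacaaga
Kcne3, first start, chr7:100176420-100176669: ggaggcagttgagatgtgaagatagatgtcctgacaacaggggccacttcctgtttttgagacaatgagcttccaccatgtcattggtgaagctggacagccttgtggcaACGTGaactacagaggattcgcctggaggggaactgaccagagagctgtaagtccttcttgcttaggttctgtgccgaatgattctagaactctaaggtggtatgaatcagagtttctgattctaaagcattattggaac
Kcne3, second start, chr7:100178433-100178682: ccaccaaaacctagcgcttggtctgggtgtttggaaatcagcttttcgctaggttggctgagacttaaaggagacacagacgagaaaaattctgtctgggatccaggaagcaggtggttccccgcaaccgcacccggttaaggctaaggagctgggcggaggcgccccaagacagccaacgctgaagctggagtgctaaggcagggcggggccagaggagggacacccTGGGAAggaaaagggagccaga
The *Esm1* window held CTTTGA at -151 and GCGTG at -47. The first *Kcne3* window held ACGTG at -140, and the second held TGGGAA at -22 and GCGTG at +9, past the printed bases. None of these matches overlapped another. Entries were found for 7 of 9 members, in 8 windows. The HIF core was in 6 of the 8 (5 of 7 members), beside 43.8% of 32851 promoters of the same length, the TCF/LEF core in 3, beside 31.2%, the RBPJ core in 3, beside 25.6%, and the TATA box in 2, beside 13.6%. A match to so short a motif is a description of letters only.

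Apelin and its receptor came next. *Apln* encodes the secreted peptide apelin, made by tip cells, and *Aplnr* its G protein-coupled receptor, found on endothelial cells of veins and sprouts. *Apln* (ENSMUSG00000037010, chrX:48025146-48034853, minus strand) was at 233, 189.7, 116 and 139 TPM in WT. It was at 124, 192.5, 87.1 and 132 TPM in *Gpr124*ΔC/ΔC and at 193, 253, 265 and 347 TPM in *Gpr124*-/-. *Gpr124*-/- overlapped WT but lay just above *Gpr124*ΔC/ΔC, by 193.1 TPM in KE4 against 192.5 in JE4. *Apln* did not pass against WT in *Gpr124*-/- (log2 fold change 0.60, 95% interval -0.01 to 1.21, adjusted p = 0.173 with edgeR) or in *Gpr124*ΔC/ΔC (-0.42, interval -1.03 to 0.19, adjusted p = 0.597). Within K its log2 ratio was 0.73, and within J and L the ratios were -0.42 and -0.34. Between both mutants it was called higher in *Gpr124*-/- (1.02, SE 0.28, adjusted p = 0.0422). That call lies close to both thresholds and was lost in 9 of 21 alternatives, 7 of them leaving out 1 library (JE6, JE3, LE2, LE5, ME1, ME4 or ME5), with adjusted p from 0.00635 to 0.139 over all 21. *Apln* is X-linked, and *Xist* exceeded the summed Y-linked genes in 2 WT, 3 *Gpr124*ΔC/ΔC and 2 *Gpr124*-/- libraries; the part of sex in its level was not tested.

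*Aplnr* was the most abundant member in every genotype. *Aplnr* (ENSMUSG00000044338, chr2:85136225-85139923, plus strand, 1 merged exon) was at 1865, 1597, 2584 and 2462 TPM in WT. It had 1404, 2013, 3005 and 2711 TPM in *Gpr124*ΔC/ΔC and 1817, 1239, 1736 and 1319 TPM in *Gpr124*-/-. The genotypes overlapped, with the J embryos low in both WT and *Gpr124*ΔC/ΔC. The log2 fold change in *Gpr124*-/- against WT was -0.52 (95% interval -0.91 to -0.13, not adjusted for the number of genes, adjusted p = 0.0616 with edgeR, 0.0314 to 0.239 over the alternatives), which did not pass. Against WT, *Gpr124*ΔC/ΔC showed 0.01 (interval -0.38 to 0.40, adjusted p = 0.997). Within-letter log2 ratios were -0.51 in K, -0.02 in J and 0.21 in L. Receptor over ligand, *Aplnr* TPM over *Apln* TPM, had a median of 13.1 in WT (8.01 to 22.2), 15.9 in *Gpr124*ΔC/ΔC (10.5 to 34.5) and 5.72 in *Gpr124*-/- (3.81 to 9.41), a ratio chosen after the values were seen. *Apela*, which encodes the other ligand of the receptor, was below the count filter, with means of 0.386 TPM in WT, 1.31 in *Gpr124*ΔC/ΔC and 0.988 in *Gpr124*-/-.

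Adrenomedullin was the member that passed the adjusted p as lower in *Gpr124*ΔC/ΔC but not in *Gpr124*-/-; *Gpr124*-/- against *Gpr124*ΔC/ΔC did not pass either. *Adm* encodes a secreted peptide that stabilizes endothelial junctions and acts in lymphatic growth, and it signals through *Calcrl*, a receptor that needs a RAMP protein as partner. *Adm* (ENSMUSG00000030790, chr7:110627661-110629820, plus strand) was at 252.5, 215.5, 296 and 173 TPM in WT. The *Gpr124*ΔC/ΔC libraries had 114, 165, 126 and 120.4 TPM, all below every WT library. *Gpr124*-/- lay between, at 179.9, 173, 158 and 238 TPM, and overlapped both. The log2 difference of *Adm* between *Gpr124*ΔC/ΔC and WT was -0.92 (SE 0.18, adjusted p = 0.0114 with edgeR), below the fold threshold, and it passed that threshold when LE6 (-1.06) or JE4 (-1.03) was left out. Within J and L the log2 ratios were -0.75 and -0.50, and within K that of *Gpr124*-/- over WT was -0.72. For *Gpr124*-/- the value against WT was -0.36 (interval -0.75 to 0.03, adjusted p = 0.203), and against *Gpr124*ΔC/ΔC it was 0.56 (interval 0.16 to 0.95, adjusted p = 0.0814), which became -0.04 with the label letter as a term.

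The receptor partners of *Adm* moved in opposite directions. *Ramp3* was at 2.60, 2.55, 2.40 and 3.86 TPM in WT. It was at 7.54, 10.1, 8.74 and 7.20 TPM in *Gpr124*ΔC/ΔC and at 38.6, 58.1, 53.8 and 65.5 TPM in *Gpr124*-/-. It was called higher in both mutants, by 4.21 (SE 0.23, adjusted p = 1.99e-07 with edgeR) in *Gpr124*-/- and 1.48 (SE 0.22, adjusted p = 0.00209) in *Gpr124*ΔC/ΔC, and again between them (2.73, adjusted p = 3.94e-05). *Ramp2*, the main partner in blood vessels, fell by 0.82 in *Gpr124*-/- (adjusted p = 1.91e-05) and by 0.46 in *Gpr124*ΔC/ΔC (adjusted p = 0.00676), from a mean of 1235 TPM in WT to 720.1 in *Gpr124*-/- and 949.7 in *Gpr124*ΔC/ΔC. *Ramp2* remained the more abundant of both, but its TPM over that of *Ramp3* went from a median of 460 in WT to 110 in *Gpr124*ΔC/ΔC and 12.2 in *Gpr124*-/-. *Calcrl* did not pass, at 0.50 (adjusted p = 0.268) in *Gpr124*-/- and 0.84 (adjusted p = 0.151) in *Gpr124*ΔC/ΔC. *Gpr182*, a receptor long linked to adrenomedullin and now known as a chemokine scavenger, had -0.98 (adjusted p = 0.00462) in *Gpr124*-/-, just under the fold threshold, and -0.49 (adjusted p = 0.284) in *Gpr124*ΔC/ΔC.

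*Pdgfb* encodes the growth factor with which tip cells recruit pericytes. *Pdgfb* (ENSMUSG00000000489, chr15:79995900-80014808, minus strand) was at 222, 174, 93.1 and 99.8 TPM in WT. It was at 188, 145, 89.4 and 88.8 TPM in *Gpr124*ΔC/ΔC and at 124, 182, 210.4 and 260.3 TPM in *Gpr124*-/-. The genotypes overlapped widely, and in both WT and *Gpr124*ΔC/ΔC each J embryo was above each other embryo. Fold changes on the log2 scale were 0.35 (95% interval -0.45 to 1.15, adjusted p = 0.583 with edgeR) in *Gpr124*-/- against WT and -0.25 (interval -1.05 to 0.55, adjusted p = 0.887) in *Gpr124*ΔC/ΔC. Within letters the log2 ratios were 0.41 in K, -0.25 in J and -0.16 in L. Its receptor *Pdgfrb*, a pericyte gene whose protein CD140b was gated out, was at a mean of 2.58 TPM in WT, 1.57 in *Gpr124*ΔC/ΔC and 2.49 in *Gpr124*-/-, and did not pass (adjusted p = 0.911 and 0.38 against WT).

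Of the other ligands of this family, *Pdgfd* was at means of 41.3 TPM in WT, 36.9 in *Gpr124*ΔC/ΔC and 46.15 in *Gpr124*-/- and did not pass against WT (-0.25, adjusted p = 0.552 in *Gpr124*ΔC/ΔC and 0.13, adjusted p = 0.638 in *Gpr124*-/- with edgeR). *Pdgfa*, *Pdgfc* and the second receptor were lower in TPM. *Pdgfa* was called higher in *Gpr124*-/- against WT (1.04, adjusted p = 0.00489 with edgeR), from a mean of 3.21 to 6.73 TPM. *Pdgfc* was called higher in *Gpr124*-/- (1.26, adjusted p = 0.00118) and in *Gpr124*ΔC/ΔC (1.48, adjusted p = 0.00175), from 0.678 TPM in WT to 1.685 and 2.01. *Pdgfra*, a receptor of fibroblasts and glial precursors, was called lower in *Gpr124*-/- (-2.55, adjusted p = 0.00835), from a WT mean of 0.697 TPM in which 1 library reached 1.67.

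The Cxcl12 axis held 3 members. In *Gpr124*-/- against WT, *Cxcl12* was called lower, *Ackr3* higher and *Cxcr4* neither, and no test compared them with each other. *Cxcl12* encodes a chemokine that guides endothelial and other cells, *Cxcr4* its signaling receptor, a tip cell gene, and *Ackr3* an atypical receptor that takes up and degrades the chemokine. *Cxcl12* (ENSMUSG00000061353, chr6:117168535-117181367, plus strand) was at 43.6, 36.2, 60.9 and 46 TPM in WT. It was at 18.75, 26, 28.8 and 32.1 TPM in *Gpr124*ΔC/ΔC and at 13.7, 11.7, 15.8 and 15.1 TPM in *Gpr124*-/-. No genotypes overlapped, and the levels stepped down from WT to *Gpr124*ΔC/ΔC to *Gpr124*-/-. The log2 fold change was -1.77 (SE 0.15, 95% interval -2.08 to -1.45, adjusted p = 2.97e-06 with edgeR) in *Gpr124*-/- against WT, called lower in all 21 alternatives. It was -0.91 (SE 0.14, adjusted p = 0.00256) in *Gpr124*ΔC/ΔC against WT and -0.86 (SE 0.14, adjusted p = 0.00304) between both mutants. As inverse folds these were 3.40, 1.88 and 1.81, and the exact permutation p on TPM was 0.0286 in each. Within K the log2 ratio of *Gpr124*-/- over WT was -2.16, and within J and L those of *Gpr124*ΔC/ΔC over WT were -0.83 and -0.59. The highest WT value was that of KE8, the library with the most fibroblast and pericyte marker RNA; without KE8 and KE4 the log2 fold changes against WT became -1.60 (*Gpr124*-/-) and -0.77 (*Gpr124*ΔC/ΔC), still past the adjusted p. Pericyte marker RNA was lower in *Gpr124*ΔC/ΔC as well (median 24.4 against 49.6 TPM in WT). In *Gpr124*-/- the pericyte markers *Rgs5*, *Vtn* and *Higd1b* were lower than in WT, while *Abcc9* was higher. The part of pericyte RNA in the fall of *Cxcl12* was not tested in either mutant.

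As the member that fell in both mutants, *Cxcl12* is shown with the 250 bases before its start in the same way. Capitals mark TGGGAA at -170 and CTTTGA at -162 on the opposite strand.
Cxcl12, chr6:117168285-117168534: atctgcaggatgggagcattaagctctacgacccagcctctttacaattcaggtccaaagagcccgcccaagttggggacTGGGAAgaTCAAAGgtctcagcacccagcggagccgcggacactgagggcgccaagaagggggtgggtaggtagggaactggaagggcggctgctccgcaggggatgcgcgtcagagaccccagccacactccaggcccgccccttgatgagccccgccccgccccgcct

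*Cxcr4* (ENSMUSG00000045382, chr1:128588199-128592293, minus strand) was at 33.2, 39.55, 23.1 and 44.3 TPM in WT. It was at 35, 19.8, 26.9 and 26.8 TPM in *Gpr124*ΔC/ΔC and at 22.3, 32.45, 28.7 and 39 TPM in *Gpr124*-/-. All genotypes overlapped. Neither mutant passed against WT: values were -0.23 (95% interval -0.81 to 0.34, log2, adjusted p = 0.613 with edgeR) in *Gpr124*-/- and -0.43 (interval -1.01 to 0.15, adjusted p = 0.557) in *Gpr124*ΔC/ΔC. Within-letter log2 ratios were -0.05 in K, -0.41 in J and -0.72 in L.

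*Ackr3* (ENSMUSG00000044337, chr1:90203980-90216751, plus strand) was at 18.9, 15.2, 15.9 and 26 TPM in WT. It was at 15.05, 14.7, 23.8 and 19.2 TPM in *Gpr124*ΔC/ΔC and at 23.8, 61.65, 43.8 and 58.9 TPM in *Gpr124*-/-. The 3 M embryos were above all other libraries, while KE4 lay within the WT range. Log2 fold changes were 1.29 (SE 0.28, adjusted p = 0.00528 with edgeR) in *Gpr124*-/- against WT and 1.43 (SE 0.28, adjusted p = 0.00754) against *Gpr124*ΔC/ΔC, both called. Within K, the *Gpr124*-/- embryo exceeded the WT embryo by a log2 ratio of 0.58. With the label letter as a term, where *Gpr124*-/- rests on KE4, the log2 fold changes were 0.53 and 0.83, both below the fold threshold. *Gpr124*ΔC/ΔC differed from WT by -0.14 (interval -0.74 to 0.46, adjusted p = 0.923), with -0.20 within J and -0.27 within L. *Cxcr4* TPM over *Ackr3* TPM was 1.45 to 2.59 in WT, 1.13 to 2.32 in *Gpr124*ΔC/ΔC and 0.526 to 0.936 in *Gpr124*-/-. This ratio, too, was chosen after the values were seen, and each gene alone overlapped between *Gpr124*-/- and WT.

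*Dpp4*, a cell surface peptidase that inactivates Cxcl12, had the largest fall among the tested partners of the members in *Gpr124*-/- against WT. It was at 12.3, 19.2, 36.7 and 26.3 TPM in WT and at 2.03, 1.01, 1.97 and 1.37 TPM in *Gpr124*-/-, without overlap. Its levels in *Gpr124*ΔC/ΔC were 4.04, 9.35, 12.7 and 19.7 TPM. Within J and within L, each *Gpr124*ΔC/ΔC library was below every WT library of its letter. Against WT, edgeR gave -3.92 (SE 0.44, adjusted p = 3.61e-05) in *Gpr124*-/- and -1.15 (adjusted p = 0.141) in *Gpr124*ΔC/ΔC, which did not pass. *Mif*, a cytokine that also binds *Cxcr4*, had 0.50 (adjusted p = 0.00123) in *Gpr124*-/- and 0.04 (adjusted p = 0.932) in *Gpr124*ΔC/ΔC. *Cxcl11*, a second ligand of *Ackr3*, was below the count filter.

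**Figure D3:**
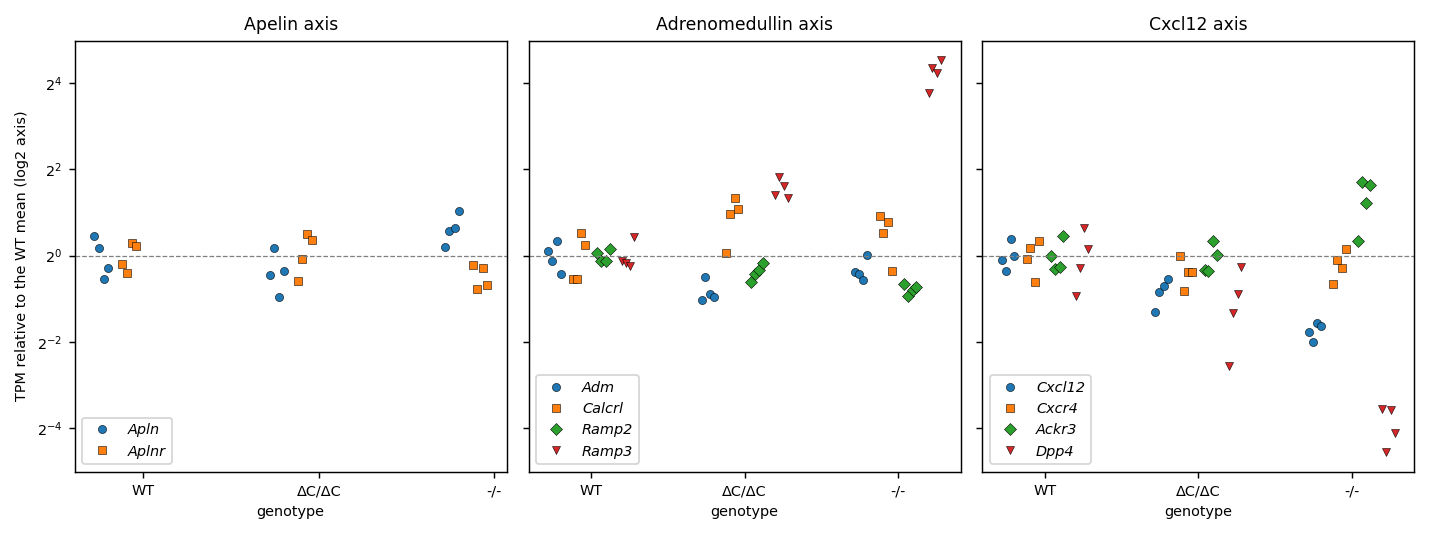
TPM relative to the WT mean (y axis, log2 scale, 1 marked by the dashed line) of ligands, receptors and partners of 3 axes, 1 point per library, by genotype (x axis). *Ramp3* rose and *Dpp4* and *Cxcl12* fell in *Gpr124*-/-, while *Apln*, *Aplnr*, *Calcrl* and *Cxcr4* overlapped WT.

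Of the 16 listed partners of the members, 12 passed the filter (*Apela*, *Ramp1*, *Adm2* and *Cxcl11* did not). In *Gpr124*-/- against WT, 3 of 12 were called higher (*Ramp3*, *Pdgfa* and *Pdgfc*) and 2 lower (*Dpp4* and *Pdgfra*), beside 5.67% and 4.21% of all tested genes. limma on log2 TPM called 1 higher and 1 lower. It tested genes with a mean of at least 1 TPM, and so not *Pdgfra*. It also added a constant to TPM, which shrinks the folds of genes at few TPM. The counts of edgeR with the letter term differed as well, and rest on KE4 against KE8. For *Gpr124*ΔC/ΔC, edgeR called 2 higher (*Ramp3* and *Pdgfc*) and 0 lower (4 at an unadjusted p under 0.05, and 1 called by DESeq2 and 0 by limma), beside 0.890% and 1.03%, and *Ramp2* was lower at the adjusted p alone. There limma called 1 higher, and edgeR with the letter term 2 higher and 1 lower. Their median log2 fold changes were 0.09 and -0.17.

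**Figure D4:**
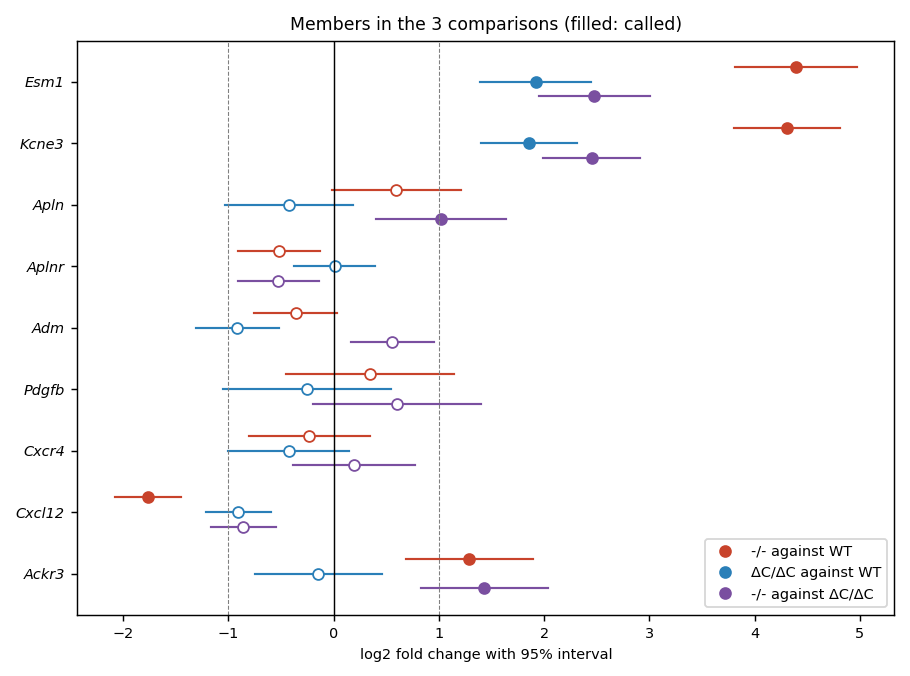
Log2 fold change (x axis) of each member (y axis) in the 3 comparisons, with the 95% interval from the fit, not adjusted for the number of genes. Filled points were called, and dashed lines mark the fold threshold. *Esm1* and *Kcne3* are at 4.40 and 4.31 in *Gpr124*-/- against WT, and *Cxcl12* at -1.77.

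The order of the levels in TPM also changed with genotype. In WT it ran *Aplnr*, *Adm*, *Apln*, *Pdgfb*, *Cxcl12*, *Kcne3*, *Cxcr4*, *Esm1* and *Ackr3* from high to low. Neighbors overlapped between libraries except *Aplnr* with *Adm* and *Pdgfb* with *Cxcl12*. In *Gpr124*-/- it ran *Aplnr*, *Kcne3*, *Esm1*, *Apln*, *Pdgfb*, *Adm*, *Ackr3*, *Cxcr4* and *Cxcl12*, with gaps after *Aplnr*, *Adm* and *Cxcr4*. *Esm1* thus moved from place 8 to place 3, and *Cxcl12* from place 5 to place 9. *Gpr124*ΔC/ΔC had *Kcne3* at place 2 and *Esm1* at place 6, with gaps after *Aplnr* and *Esm1*.

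Other genes of the tip cell state were taken as a list of 22, all tested. In *Gpr124*-/- against WT, 7 were called higher and 0 lower (0 also at an unadjusted p under 0.05 with edgeR, and 0 called by DESeq2 and limma), beside 5.67% and 4.21% of all tested genes. At the adjusted p whatever the fold, 16 were higher, those 7 included, beside 10.5%. The median log2 fold change was 0.68, beside -0.01 over all tested genes. The called genes were *Igfbp3* (2.01, adjusted p = 0.0148 with edgeR), a growth factor binding protein, *Angpt2* (1.74, adjusted p = 0.000508), a Tie2 ligand, *Plxnd1* (1.60, adjusted p = 0.00142), a semaphorin receptor, and *Mcam* (1.34, adjusted p = 1.47e-05), an adhesion molecule. The other 3 encode basement membrane collagens and a peroxidase that cross-links them: *Col4a1* (1.22, adjusted p = 0.000276), *Col4a2* (1.06, adjusted p = 0.000909) and *Pxdn* (1.10, adjusted p = 7.78e-05). *Angpt2* was at 21.9 to 32.9 TPM in WT, 37.75 to 58.6 in *Gpr124*ΔC/ΔC and 65 to 157.6 in *Gpr124*-/-, without overlap. With the label letter as a term, which rests on KE4 against KE8, fewer genes of the list were called.

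Of the 22, 0 were called in *Gpr124*ΔC/ΔC against WT by edgeR, DESeq2 or limma, with 7 higher at an unadjusted p under 0.05. With 0.890% of all tested genes called higher and 1.03% lower there, a count of 0 in 22 is near the background. With edgeR, 2 were higher at the adjusted p alone, beside 1.85% of tested genes higher at it whatever the fold: *Mcam* (0.55, adjusted p = 0.0357) and *Pxdn* (0.70, adjusted p = 0.00831). Their median was 0.20. Against *Gpr124*ΔC/ΔC, *Gpr124*-/- had 3 called higher (*Angpt2*, *Plaur* and *Plxnd1*), beside 2.67% of tested genes, and 1 with limma. Fewer than 3 were called with the letter as a term, where *Gpr124*-/- rests on KE4. *Dll4*, the Notch ligand of tip cells, did not pass in any comparison (0.15, adjusted p = 0.648 in *Gpr124*-/- against WT), and neither did the VEGF receptor *Kdr* (-0.16, adjusted p = 0.494); both were named after their values were seen.

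Stalk cell and Notch response genes formed a list of 13, all tested. None was called by edgeR, DESeq2 or limma in any of the 3 comparisons. A call appeared with the label letter as a term in *Gpr124*-/- against each other genotype, where *Gpr124*-/- rests on KE4. The shares of all tested genes called in a direction, 0.890% to 5.67%, make a count of 0 in 13 near the background. At an unadjusted p under 0.05, 3 were higher and 1 lower in *Gpr124*-/- against WT, and 0 higher and 2 lower in *Gpr124*ΔC/ΔC. At the adjusted p alone, *Tek*, the Tie2 receptor, was lower in *Gpr124*-/- against WT (-0.73, adjusted p = 0.00795 with edgeR). *Hey1*, a Notch target, was lower in *Gpr124*ΔC/ΔC against WT (-0.77, adjusted p = 0.00409). Each was 1 of 13, beside 9.32% and 2.24% of tested genes lower at the adjusted p whatever the fold. The *Gpr124*-/- count is near that background. Between both mutants 3 were higher and 1 lower in *Gpr124*-/- at the adjusted p, beside 4.93% and 3.89% of tested genes. The median log2 fold changes were 0.05, -0.18 and 0.44. *Hey1* had means of 101 TPM in WT, 62.65 in *Gpr124*ΔC/ΔC and 104 in *Gpr124*-/-. Among the members, *Gpr124*ΔC/ΔC also had the lowest mean of *Adm*, *Apln*, *Pdgfb*, *Cxcr4* and *Ackr3*. Of these only *Adm* passed the adjusted p in *Gpr124*ΔC/ΔC against WT.

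Hypoxia response genes were included because *Adm* and other members are known to respond to low oxygen. Of 12, all tested, 5 were called higher in *Gpr124*-/- against WT, beside 5.67% of all tested genes: *Egln3* (2.58, adjusted p = 4.56e-06 with edgeR), *Vegfa* (2.44, adjusted p = 0.000376), *Ndrg1* (1.64, adjusted p = 8.27e-06), *Car9* (1.42, adjusted p = 0.00358) and *Bnip3* (1.01, adjusted p = 0.00207). At the adjusted p, whatever the fold, 9 were higher, those 5 included, beside 10.5% of tested genes, and 0 lower, beside 9.32% (0 also at an unadjusted p under 0.05 with edgeR, and 0 called by DESeq2 and limma). The single call in *Gpr124*ΔC/ΔC against WT, 1 of 12 beside 0.890% of tested genes, was *Egln3* (1.09, adjusted p = 0.0123), an oxygen-sensing hydroxylase, and *Ndrg1* was higher at the adjusted p alone. Between both mutants 3 were called higher (*Vegfa*, *Egln3* and *Bnip3*), beside 2.67% of tested genes. With the label letter as a term, which rests on KE4 against KE8, fewer were called in *Gpr124*-/- against WT and between both mutants. Between both mutants, 9 were higher at an unadjusted p under 0.05 in the fit without the letter, and DESeq2 and limma each called 3. limma called 3 in place of 5 in *Gpr124*-/- against WT. *Egln3* was at 4.76 to 8.03 TPM in WT, 8.97 to 15.8 in *Gpr124*ΔC/ΔC and 29.8 to 41.4 in *Gpr124*-/-. Against WT, the 12 genes had a median log2 fold change of 0.08 in *Gpr124*ΔC/ΔC, compared with 0.80 for *Gpr124*-/-. Erythroid and platelet marker RNA was also higher in *Gpr124*-/-, and its part in these list counts was not tested.

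**Figure D5:**
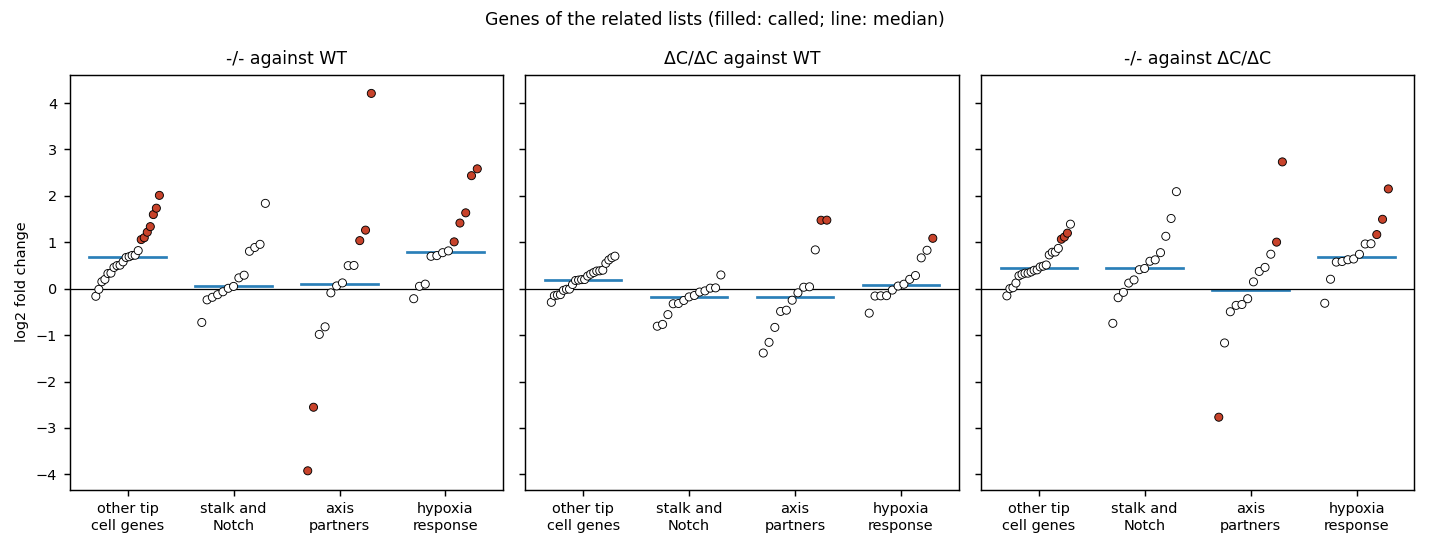
Log2 fold change (y axis) of the tested genes of 4 lists (x axis) in the 3 comparisons, 1 point per gene in rising order. Filled points were called, and lines mark medians, which for *Gpr124*-/- against WT were 0.68 in other tip cell genes, 0.05 in stalk and Notch genes, 0.09 in partners and 0.80 in hypoxia genes.

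Beyond these lists, the genes whose profiles over the 12 libraries lay nearest to each member, among 9989 genes, were as follows. For *Cxcl12* they were *Aif1l* (mean absolute difference 0.103 in centered log2 CPM) and *Gpd2* (0.129). Both were called lower in *Gpr124*-/-, with log2 fold changes of -1.73 (adjusted p = 2.51e-06 with edgeR) and -1.68 (adjusted p = 1.5e-06) against WT. *Ackr3* lay nearest to *Mkrn1* (0.148) and *Prkca* (0.162), and *Adm* to *Slc16a6* (0.17) and *Edn1* (0.178), which encodes endothelin-1. *Apln* lay nearest to *Ocel1* (0.149) and *Nploc4* (0.156), *Aplnr* to *4930578C19Rik* (0.0699) and *Eogt* (0.0794), *Pdgfb* to *Ubp1* (0.107) and *Pdcd7* (0.108), and *Cxcr4* to *Rtl8b* (0.2) and *Gnb2* (0.203). A small difference for a member that varied little, such as *Aplnr*, says less than one for *Esm1*, whose levels spanned more than 4 log2 units between genotype means.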

How the data were processed

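RNA of CD31+ forebrain endothelial cells from 12 E15.5 mouse embryos (4 per genotype) was amplified by SMART-Seq V4 and sequenced as paired ends, per the labels and the study's methods. The authors deposited counts, whole reads per gene without normalization, and TPM, which recomputation from counts and lengths matched within 0.00498% for values above 1 TPM. The labels name mm10 and bcl2fastq 2.17, and the aligner, counter and strand setting are not given in the sources used here.

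Counts were fitted in R 4.3.3 with edgeR 4.0.16 (filterByExpr by genotype with a count minimum of 10, TMM, glmQLFit, glmQLFTest, 16637 genes, Benjamini-Hochberg), and standard errors and 95% intervals were derived from the F statistic. TPM was compared by exact two-sided permutation (70 orders). The fits were tested on simulated data. Depth was 13877572 to 22551163 counts, and replicates are separate embryos by label. Alternatives were upper-quartile factors, DESeq2 1.42.0, other filters, a letter term, 2 genotypes only, no fold threshold, limma 3.58.1 on log2(TPM + 1) or log2(TPM + 0.1), and each library left out.

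Named genes were the members, list genes called in a comparison or acting as a ligand or receptor of a member (at most 8 a list by size of change in *Gpr124*-/- against WT), the 2 genes nearest to each member in centered log2 CPM (prior count 2) among tested genes of at least 8 CPM, and *Adgra2*. *Calcrl*, *Pdgfrb*, *Kcnq1*, *Apela*, *Ramp1*, *Adm2*, *Cxcl11*, *Pdgfd*, *Tek*, *Hey1*, *Plaur*, *Dll4* and *Kdr* were named beyond the limit of 8 or after their values were seen. The markers *Abcc9*, *Rgs5*, *Vtn*, *Higd1b* and *Emcn* were also named after their values were seen. Members, lists and ratios of 2 genes were chosen with earlier results of these data known. Motifs were searched in RefSeq promoter windows of GRCm38.p6.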

Additional observations from a re-analysis of the deposited data

How the results depend on the processing

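In *Gpr124*-/- against WT, 3 or 4 members were called under the alternatives (4 as reported), in *Gpr124*ΔC/ΔC against WT 2 to 4 (2 as reported, and 4 without a fold threshold), and between both mutants 3 to 5 (4 as reported). Signs turned for 3 values. *Aplnr* in *Gpr124*ΔC/ΔC against WT went from 0.01 to -0.0006 without a filter and -0.0055 with the letter term, and from -0.1214 to 0.1374 as single libraries were left out. *Ackr3* in that comparison ran from -0.2627 to 0.0122 over left-out libraries, and *Adm* between both mutants was -0.0382 with the letter term. The letter term also took the calls of *Ackr3* and of *Apln* between both mutants (1.15) and made *Cxcl12* between them a call (-1.39). In that fit the *Gpr124*-/- effect against WT rests on KE4 and KE8, and the M embryos do not enter it. What sets KE4 and KE8 apart from their groups was not tested. *Apln* was at 0.986 with upper-quartile factors. Leaving out LE5 made *Cxcl12* a call in *Gpr124*ΔC/ΔC (-1.0002). With CPM in place of TPM, the exact permutation p of *Aplnr* in *Gpr124*-/- against WT was 0.0286 rather than 0.114. Leaving out KE8 and KE4 together, chosen after seeing the data, left 4, 2 and 4 members called. The labels give no replicate numbers that genotypes share, and the letters that some of them share entered as the letter term. The lowest count of any member in a library was 168.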
